A study of Mus musculus with 8 samples.

Results

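Expression of the 9 enzyme genes that carry sterol synthesis from HMG-CoA formation to lanosterol was examined in mouse bone marrow neutrophils labelled WT or ATF3 KO. The genes are Hmgcs1, Mvk, Pmvk, Mvd, Idi1, Fdps, Fdft1, Sqle and Lss, taken in pathway order, and their members on the array are all non-control probes that carry a RefSeq transcript of one of them. This gave 12 probes for 9 genes, out of 55681 probes and 21251 genes tested. All 9 genes had a probe that passed the filter on dim probes (a signal well over background on 4 or more arrays). The step that turns HMG-CoA into mevalonate is not among them and was not analysed here. The 9 genes were chosen with the difference between the genotypes already known, so their differences are given as a description, without a test.

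The series holds 4 WT and 4 ATF3 KO samples, both on a C57BL/6 background, with 1 single-colour Agilent array each. ATF3 belongs to the ATF/CREB transcription factors and is induced by many kinds of stress. Neutrophils were collected from marrow of the long hind leg bones as the fraction that magnetic beads against Ly6G, a neutrophil surface protein, retained. No other allele or treatment is given in the genotype labels, but the description field of 7 samples names a culture in methylcellulose with 4-OHT, whereas WT replicate 1 is described as unmanipulated and the series design describes immediate RNA isolation. This conflict was not resolved, and values without WT replicate 1 are given below. Whether each sample is a separate animal is not given, so the errors measure only the spread between these samples, and precision is limited by their number. All arrays sat on 1 slide with the WT arrays in one row and the KO arrays in the other, so the row on the slide cannot be told apart from genotype.

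The single Atf3 probe was not lower on the arrays labelled ATF3 KO (log2 signal 1.00 to 1.54) than on the WT arrays (0.65 to 0.82). It may lie outside the deleted part, so the genotype labels were not verified, and ATF3 KO and KO below mean the arrays with that label. Of 15 neutrophil marker genes 14 had a named probe, and all 14 were above background on every array. Ly6g had none. WT arrays were brighter, with a 75th percentile of intensity from 150.8 to 215.7 against 112.5 to 160.6.

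Cholesterol synthesis starts by condensing acetyl-CoA units to HMG-CoA, which is reduced to mevalonate. Phosphorylation and decarboxylation of mevalonate give isopentenyl pyrophosphate, the building block of all isoprenoids, and chain building leads by way of farnesyl pyrophosphate and squalene to lanosterol, the first sterol. Farnesyl pyrophosphate is also the branch point for ubiquinone, dolichol and the lipid anchors of small GTPases. The genes of the pathway are classic targets of SREBP-2, a membrane-bound transcription factor that is released when sterols in the endoplasmic reticulum are scarce and that acts on promoters together with the CCAAT-binding factor NF-Y and with Sp1.

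Upstream sequences were available for 6 of the 9 genes, Hmgcs1, Mvk, Pmvk, Mvd, Idi1 and Lss, from RefSeq on build GRCm38.p6. Fdps, Fdft1 and Sqle had no entry. The 250 bases before the annotated start were searched on both strands for TCACNCCAC (a sterol regulatory element), CCAAT (the NF-Y box), GGGCGG (the Sp1 box) and TGACGTCA (the cAMP response element, which ATF3 can bind). The sequences below are shown because they carry the matches of the first enzyme, of the gene with the most CCAAT boxes, of the isomerase and of the last enzyme. They are chr13:119690101-119690350 for Hmgcs1, chr5:114444019-114444268 for Mvk, chr13:8885356-8885605 for Idi1 and chr10:76531355-76531604 for Lss, all on the plus strand, and capitals mark the matches.
Hmgcs1: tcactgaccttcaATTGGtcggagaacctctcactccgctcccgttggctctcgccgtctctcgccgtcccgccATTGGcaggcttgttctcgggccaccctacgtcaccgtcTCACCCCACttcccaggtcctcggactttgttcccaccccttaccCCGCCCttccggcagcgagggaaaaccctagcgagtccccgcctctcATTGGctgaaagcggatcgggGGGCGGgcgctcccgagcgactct
Mvk: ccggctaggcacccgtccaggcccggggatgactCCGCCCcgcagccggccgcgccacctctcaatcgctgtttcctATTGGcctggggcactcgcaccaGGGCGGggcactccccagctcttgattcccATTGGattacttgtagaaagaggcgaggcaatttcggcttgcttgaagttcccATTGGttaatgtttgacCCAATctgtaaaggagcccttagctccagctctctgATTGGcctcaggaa
Idi1: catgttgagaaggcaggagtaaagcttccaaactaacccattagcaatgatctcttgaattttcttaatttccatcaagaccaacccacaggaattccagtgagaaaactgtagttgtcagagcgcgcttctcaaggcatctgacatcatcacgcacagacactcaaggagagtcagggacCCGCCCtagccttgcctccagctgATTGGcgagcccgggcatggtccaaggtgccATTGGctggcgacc
Lss: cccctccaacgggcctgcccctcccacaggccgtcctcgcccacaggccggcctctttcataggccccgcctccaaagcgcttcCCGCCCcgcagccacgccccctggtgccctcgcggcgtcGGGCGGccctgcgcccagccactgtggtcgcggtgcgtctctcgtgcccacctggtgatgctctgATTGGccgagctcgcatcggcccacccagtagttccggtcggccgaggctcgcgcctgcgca

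Every one of the 6 genes had a CCAAT box in its window, read on either strand (6 of 7 windows, since Pmvk has 2 annotated starts, of which 1 has the box). Of all 32851 windows of this length 33.8% hold it. Mvk had 5 such boxes, Hmgcs1 had 3, Mvd and Idi1 had 2 each, and Pmvk and Lss had 1 each. The GGGCGG box stood in 5 of the 6 genes, all but Pmvk, against 32.7% of all windows. The 2 Pmvk windows start far apart, at bases 89454291 and 89459321 of chromosome 3. Which start these cells use was not tested, so the Pmvk matches may not describe its active promoter. The sterol regulatory element was matched once, in Hmgcs1, 137 to 129 bases before the start, against 1.05% of all windows. Only this 1 form was searched, and its absence from the other windows says nothing on the binding of SREBP-2. No window of the 6 genes held TGACGTCA, which 1.55% of all windows hold, and the absence of these letters from the windows says nothing on the binding of ATF3. Among these genes 0 matches overlapped another. The motifs were searched with the results known and are a description of the sequences.

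All 9 enzyme genes had a lower mean on the ATF3 KO arrays. Their log2 differences ran from −0.75 for Fdps to −0.31 for Pmvk, which puts the KO signal at 59.3% to 80.8% of the WT signal, and their median was −0.57. The median of all genes tested was −0.11, and all 9 lay below it, as do 50% of all genes by construction. Values below are log2 processed signals minus the array's 75th percentile, and each difference is KO minus WT from limma with its standard error.

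Hmgcs1 encodes the cytosolic synthase that makes HMG-CoA. Its signal was 4.14, 4.14, 3.77 and 3.78 on WT replicates 1 to 4 and 3.42, 3.49, 3.89 and 3.18 on the KO replicates. KO replicate 3 lay above WT replicates 3 and 4, so the groups overlapped, and the difference was −0.46 (SE 0.17, 95% interval −0.84 to −0.09).

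Mvk, Pmvk and Mvd encode the mevalonate kinase, the phosphomevalonate kinase and the decarboxylase that lead to isopentenyl pyrophosphate. Mvk gave 2.74, 2.93, 2.47 and 2.77 in WT and 2.29, 1.79, 2.18 and 1.72 in KO. All 4 KO arrays lay below all 4 WT arrays, and the difference was −0.73 (SE 0.16, 95% interval −1.09 to −0.38). The second Mvk probe was dimmer and showed nearly the same difference, with 0.40 ± 0.16 in WT and −0.30 ± 0.34 in KO (SD, n = 4). Pmvk gave 4.48, 4.58, 4.23 and 4.39 in WT and 4.19, 3.98, 4.40 and 3.89 in KO. It had the smallest difference of the 9 (−0.31, SE 0.14), with KO replicate 3 inside the WT range, and its other probe differed by −0.24. Mvd gave 1.13, 1.44, 0.93 and 1.13 in WT and 0.85, 0.66, 1.00 and 0.46 in KO. KO replicate 3 again reached into the WT range, above WT replicate 3, and the difference was −0.41 (SE 0.15).

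Idi1 encodes the isomerase that turns isopentenyl into dimethylallyl pyrophosphate, and Fdps the synthase that builds farnesyl pyrophosphate from them. Idi1 gave 2.76, 2.80, 2.31 and 2.34 in WT and 1.91, 1.89, 2.26 and 1.87 in KO. The KO arrays all lay below the WT arrays, but KO replicate 3 stood close under them, and the difference was −0.57 (SE 0.15). Fdps gave 3.79, 3.86, 3.39 and 3.49 in WT and 2.92, 2.86, 3.22 and 2.51 in KO. Its difference was the largest of the 9, −0.75 (SE 0.17, 95% interval −1.13 to −0.38), and the groups did not overlap.

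Fdft1 encodes squalene synthase, which commits farnesyl pyrophosphate to sterols. It gave 1.94, 1.96, 1.55 and 1.69 in WT and 1.22, 1.26, 1.53 and 0.87 in KO, with groups that touched but did not overlap and a difference of −0.57 (SE 0.16). Its other probe was above background on 1 WT array and no KO array and did not pass the filter. Sqle encodes squalene epoxidase, a rate-limiting step after the branch point. It gave 2.24, 2.23, 1.79 and 1.98 in WT and 1.34, 1.32, 1.75 and 0.88 in KO, a difference of −0.74 (SE 0.18) without overlap.

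Lss encodes the cyclase that forms lanosterol and had a dim probe, above background on 7 of the 8 arrays. Its log2 signal was −1.89, −1.81, −2.18 and −2.24 in WT and −2.38, −2.39, −2.51 and −3.65 in KO. The processed intensity was 57.9, 61.5, 36.4 and 31.8 in WT and 30.9, 29.4, 24.3 and 8.94 in KO. KO replicate 4, the array not above background, stood far below the others, and the difference of −0.70 (SE 0.27) had the widest interval of the 9, −1.31 to −0.09. With normexp background correction it was −0.14.

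**Figure D1:**
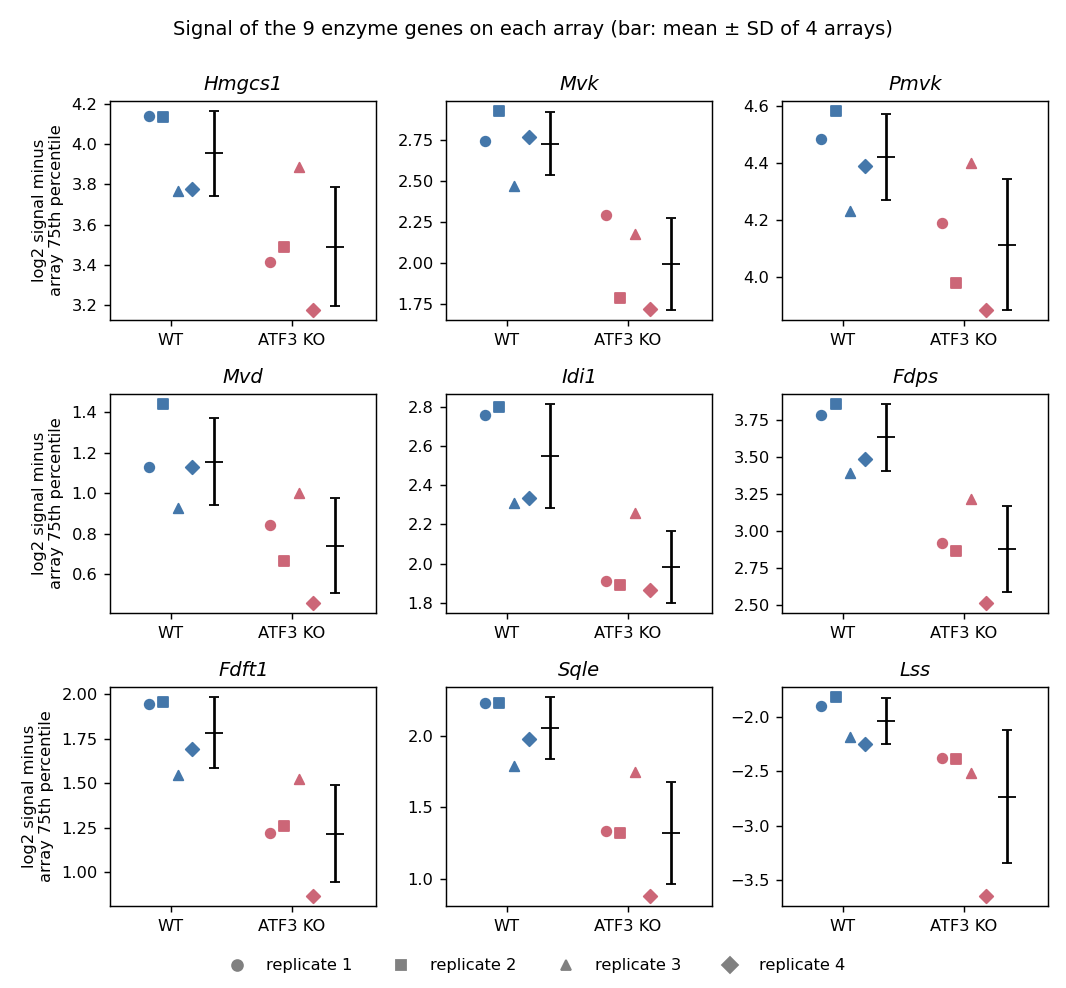
Log2 processed signal minus the array's 75th percentile (vertical axes, one scale per gene) of each enzyme gene on the 4 WT and 4 ATF3 KO arrays, with the mean and SD beside them. Mvk, Idi1, Fdps, Fdft1, Sqle and Lss have all KO arrays below all WT arrays, and the triangle of KO replicate 3 lies high in its group in 7 of the 9 panels.

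In 6 of the 9 genes the KO arrays lay below all WT arrays, against 10.9% of all genes tested. None of the 9 passed limma's adjusted p threshold of 0.05 over all genes in the lower direction, which 0.08% of all genes did, and 9 had an unadjusted p under 0.05 with a lower KO mean, as had 14.5% of all genes. Because the genes were chosen on this contrast, nothing is read from these counts. With normexp background correction limma called 3 of them, Mvk, Fdps and Sqle (adjusted p 0.0195, 0.0394 and 0.0349). It called Mvk and Fdps with trend and robust variances, Mvk with the deposited log2 table and Fdps without KO replicate 3. Over all 21251 genes the calls in the lower direction numbered 84 with normexp and 56 with trend and robust variances. They numbered 40 with the deposited table and 45 without KO replicate 3. Nothing is read from these counts either. The lowest adjusted p among the 9 ran from 0.0195 to 0.252 over the other settings that kept at least 3 arrays per genotype and was 0.0853 as reported. Without WT replicate 1 all 9 differences were still below the median of all genes, with a median of −0.41 relative to it, against −0.46 with all arrays.

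**Figure D2:**
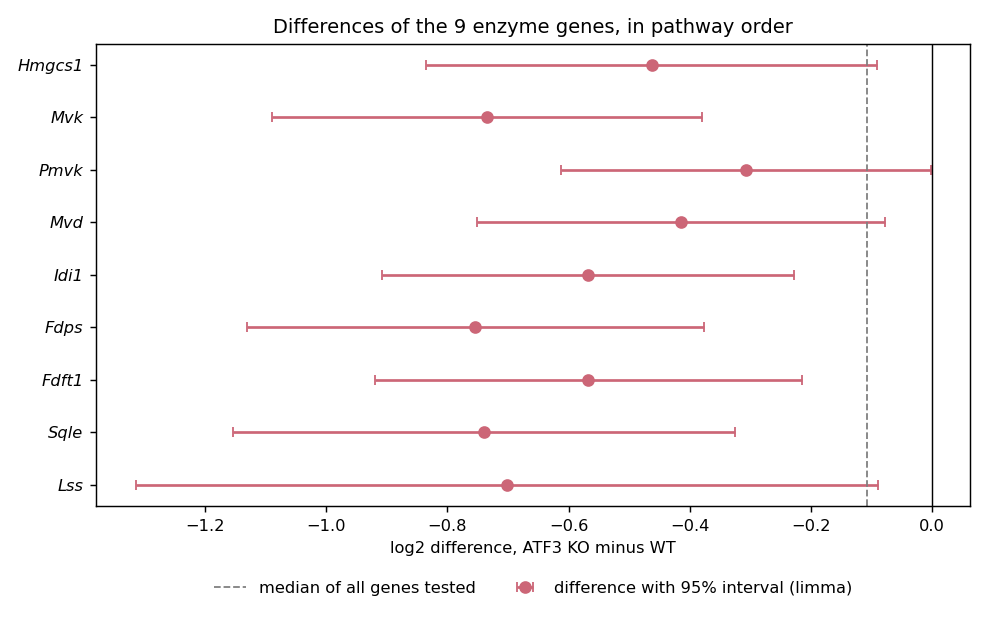
Log2 difference, ATF3 KO minus WT, of the 9 enzyme genes in pathway order with its 95% interval from limma (horizontal axis), and the median of all 21251 genes tested (dashed line, −0.11). The 9 values lie between −0.75 and −0.31, and their intervals overlap one another.

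The size of the difference did not follow the order of the pathway. The 4 genes at −0.70 or lower, Fdps, Sqle, Mvk and Lss, encode an early, a middle and both final steps, and the smallest differences, those of Pmvk, Mvd and Hmgcs1, lay in the early part. The 95% intervals of all 9 overlapped, so an order among them is not resolved. The genes lie on 7 chromosomes, with Hmgcs1 and Idi1 on 13 and Pmvk and Fdps on 3.

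Among arrays of the same genotype the 9 genes were mostly high or low on the same arrays. Within WT, replicate 2 was the highest array for 7 genes and replicate 1 for the remaining 2, whereas replicate 3 was the lowest for 8. Within KO, replicate 3 was the highest for 7 genes and replicate 4 the lowest for all 9. On average the 9 genes stood 0.21 above their WT mean on replicate 2 and 0.22 below it (−0.22) on replicate 3. In KO the average deviation was 0.30 on replicate 3 and −0.37 on replicate 4, while the median deviation of all genes stayed between −0.04 and 0.07 on the 8 arrays. The mean of the 10 enzymes after lanosterol was highest and lowest on the same arrays as that of the 9, in both genotypes. By root mean square distance to the mean within-genotype profile of the 9, 8029 of 12543 other genes with a symbol lay nearer than Lss and 0 lay nearer than Fdps. Each of the 9 is part of that mean, which draws its own distance down, so nothing is read from the nearness of Fdps. Lss left the common pattern in KO, where its signal on replicate 3 was below those on replicates 1 and 2.

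**Figure D3:**
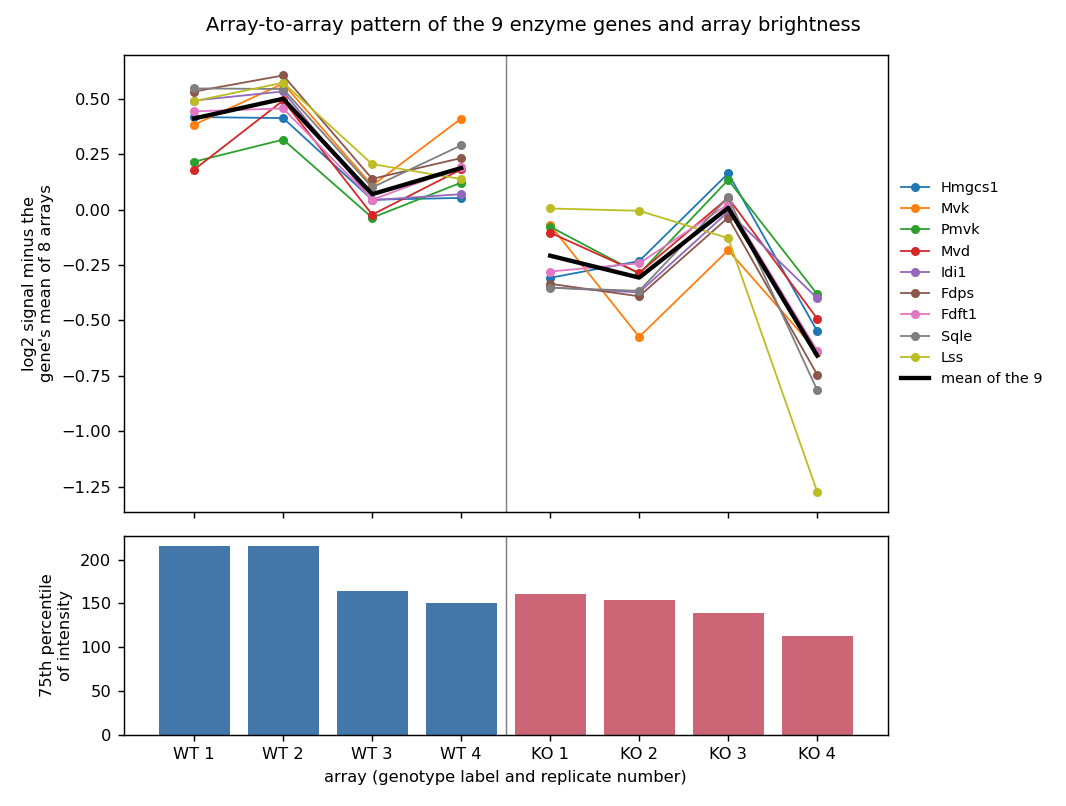
Upper panel, log2 signal of each enzyme gene minus its own mean over the 8 arrays, with the mean of the 9 in black. Lower panel, the 75th percentile of processed intensity of the same arrays, which is highest on WT replicates 1 and 2 and lowest on KO replicate 4, where the 9 genes are also highest and lowest.

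Array brightness moved with this pattern, and its part in the result was not tested. The 75th percentile of intensity was 215 and 215.7 on WT replicates 1 and 2, where the 9 genes were highest, and 112.5 on KO replicate 4, where they were lowest. KO replicate 3, on which 7 of the 9 genes had the highest signal of their group, was the second dimmest array (138.5). Among the 4 arrays of like brightness, WT replicates 3 and 4 (164.5 and 150.8) and KO replicates 1 and 2 (160.6 and 153.9), all 9 genes were lower in both KO arrays than in both WT arrays. Their differences there ran from −0.58 for Mvk to −0.17 for Lss. The median of the 9 relative to all genes was −0.29 in that set, chosen after seeing the data, against −0.46 over all arrays. This set repeats the contrast on which the genes were chosen, with fewer arrays. The share of all genes with both KO arrays below both WT arrays was not worked out for it. Nothing is therefore read from the separation of all 9. Among the 5911 genes whose mean signal lay within the range of the 8 brighter enzyme genes, 82% had a lower KO mean and the median difference was −0.17. Of these genes 13.5% had a difference as low as that of Pmvk or lower, and 1.02% one as low as the median of the 9 or lower. Because the 9 were chosen on this contrast, nothing is read from these shares.

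The genes whose log2 signals over the 8 arrays, centred on their own mean, came closest to the mean profile of the 9 included sterol genes outside the set. Likeness was the root mean square distance to that profile in log2 units, over 12543 other genes with a symbol, whose median distance was 0.30. BC028528 was nearest (0.066), followed by Msmo1, the methylsterol monooxygenase of the next pathway segment (0.085), and Hsd17b7, a sterol ketoreductase (0.094). Abcb9 (0.10), Cldn12 (0.10), Spring1, which is needed for SREBP activation (0.10), and Htatip2 (0.10) were also among the nearest. The 9 genes themselves lay between 0.041 (Fdft1) and 0.27 (Lss) from their mean. After centring within each genotype, which removes the genotype difference, only Abcb9 stayed among the 8 nearest genes. The nearest were then Ceacam10, Supt4b, Arl11, Tinagl1, Ilrun, Abcb9, Sri and Tmbim6 (0.038 to 0.047), none of them an enzyme of sterol synthesis. Their genotype differences ran from −0.40 for Abcb9 to −0.16 for Supt4b, and their groups overlapped in every case. Without KO replicate 4 they ran from −0.29 for Abcb9 to −0.03 for Supt4b.

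The enzymes that follow lanosterol on the way to cholesterol had the next lowest median of the 5 pathway lists. All 10 measured genes lay below the median of all genes, with a list median of −0.44 (−0.34 after subtracting the median of all genes), and 0 of the 10 passed limma's threshold in either direction (0.08% of all genes were called lower, 0.367% higher and 0.447% in either direction). At an unadjusted p under 0.05, 8 of them were lower, against 14.5% of all genes. In 1 of the 10 all KO arrays lay below all WT arrays, a share near the 10.9% of all genes. Among the 4 arrays of like brightness the list median relative to all genes was −0.14. Hsd17b7 differed by −0.59 (SE 0.12, limma adjusted p = 0.0724), and its KO arrays all lay below the WT arrays. Cyp51, the lanosterol demethylase, differed by −0.64 (SE 0.21) and Sc5d, a sterol desaturase, by −0.36 (SE 0.13), both with overlapping groups. With normexp Cyp51 differed by −0.20, and Sc5d was at −0.21 with the percentile over detected probes.

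Of the genes that control SREBP processing, all 7 lay below the median of all genes, the list median was −0.26, and 0 passed limma's threshold, with 4 lower at an unadjusted p under 0.05 (14.5% of all genes). Relative to all genes the median was −0.15, and −0.26 without KO replicate 2. Insig1, which holds the SREBP complex in the endoplasmic reticulum and is itself an SREBP target, differed by −0.59 (SE 0.20), and by −0.13 with normexp. Srebf2, the gene of SREBP-2, differed by −0.43 (SE 0.15), and Scap, the sterol-sensing escort protein, by −0.25 (SE 0.09) with separate groups. Their smallest differences over the other settings were −0.24 for Srebf2 and −0.09 for Scap. Among the 16 genes that use farnesyl or geranylgeranyl pyrophosphate outside sterol synthesis the median was −0.19, 12 lay below the median of all genes and 0 passed limma's threshold, with 3 lower at an unadjusted p under 0.05, a share near the 14.5% of all genes. These were Fnta and Fntb, the subunits of farnesyltransferase (−0.28, SE 0.10, and −0.43, SE 0.15), and Nus1, a subunit of the dolichol-making prenyltransferase (−0.28, SE 0.10). The Fnta probes disagreed, and the mean over its probes was 0.06. Fntb differed by −0.05 with normexp, and Nus1 by −0.11 with the deposited table. Pdss2 stood apart with 0.62 and an SD of 1.84 among KO arrays, and was named after its value was seen.

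Of the 12 fatty acid synthesis genes 10 were measured, and the other 2, Fasn and Fads2, were above background on no array. Of those measured 1 passed limma's threshold in the lower direction, which 0.08% of all genes did. Me1, the malic enzyme that supplies NADPH, fell by 0.84 on the log2 scale (SE 0.14, limma adjusted p = 0.0494), but it was above background on 2 of 4 KO arrays and shrank to −0.15 with normexp. It did not pass in 15 of the 19 other settings in which it was tested. Fads1, a desaturase, differed by −0.55 (SE 0.12) and Elovl5, an elongase, by −0.32 (SE 0.09), with smallest values over the other settings of −0.36 and −0.17, whereas Elovl6 and Scd1, named after their values were seen, differed by 0.18 and 0.10, so this list had genes on both sides of 0. Its median was −0.20, and 6 of 10 genes lay below the median of all genes, a share near the 50% that holds for all genes by construction. The comparison of these lists with one another was not tested.

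**Figure D4:**
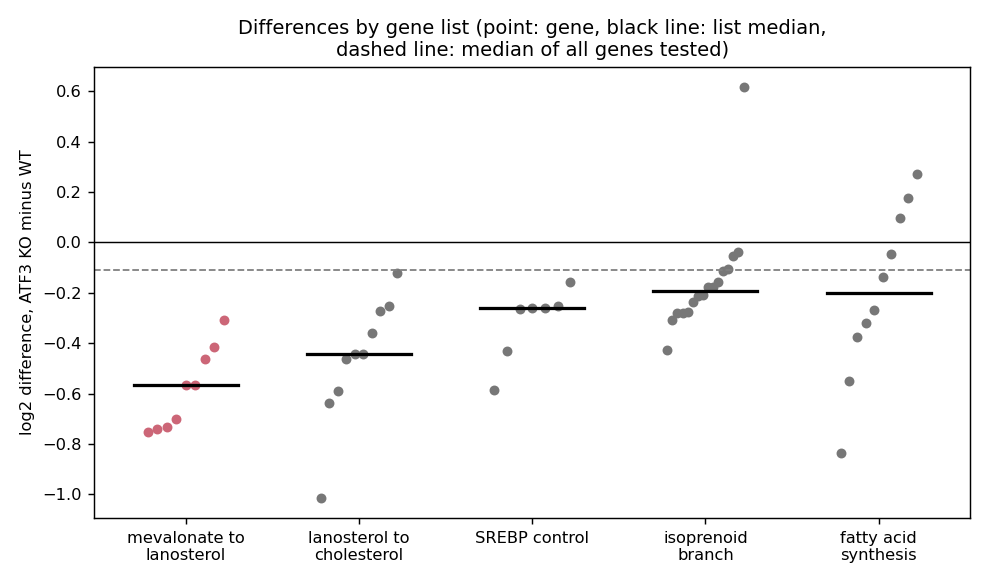
Log2 difference, ATF3 KO minus WT, of each measured gene (points) in the 9 enzymes from mevalonate to lanosterol and in 4 related lists, with the list median (black line) and the median of all genes (dashed). The list medians are −0.57, −0.44, −0.26, −0.19 and −0.20 from left to right.

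Markers of other marrow cells differed between the same arrays. Each list was scored per array by averaging how far its genes lay from their own means and subtracting the median of all genes. For the 7 marrow stroma genes it was 0.06 to 0.52 in WT and −0.77 to −0.02 in KO. For the 9 monocyte and macrophage genes it was 0.06 to 0.28 in WT and −0.28 to 0.005 in KO, and Vsig4, a complement receptor of tissue macrophages, was called lower (−0.92, SE 0.15, limma adjusted p = 0.0481), a call that was lost in 13 of 20 other settings. The 10 B lineage genes ran the other way, from −0.60 to −0.10 in WT and from 0.16 to 0.51 in KO. All genes of these 3 lists were above background on all 8 arrays. Neutrophil markers (−0.15 to 0.03 and −0.09 to 0.22) and proliferation genes (−0.36 to 0.36 and −0.12 to 0.14, with 14 of 15 measured) overlapped between the groups. The neutrophil markers nevertheless had a median difference of 0.19, against −0.11 for all genes. Of these 14 markers 1 lay below the median of all genes, as do 50% of all genes by construction, and 5 had a lower KO mean. Scores overlapped for erythroid genes (−0.72 to 0.51 in WT and −0.07 to 0.15 in KO), megakaryocyte genes (−0.58 to −0.07 and −0.32 to 0.96), eosinophil and basophil genes (−0.39 to 0.08 and −0.07 to 0.62) and T and NK cell genes (−0.03 to 0.13 and −0.29 to 0.16). All 7 megakaryocyte genes nevertheless had a higher KO mean, with a median difference of 0.63, and only KO replicate 2 scored within the WT range. All 7 stroma genes had a lower KO mean, and their median difference was −0.69, against −0.57 for the 9 enzyme genes. Within KO the stroma score was lowest on replicate 2 (−0.77) and highest on replicate 4 (−0.02), and the 9 enzyme genes were lowest on replicate 4. Within WT the stroma score was highest on replicate 2 (0.52), as was the mean of the 9, and lowest on replicate 1 (0.06). The mean of the 9 was lowest on WT replicate 3. The monocyte and macrophage score was −0.24 on KO replicate 4 and highest in WT on replicate 3 (0.28). The part of these cell types in the sterol gene differences was not tested, and in a bulk sample fewer cells of a type and less RNA per cell cannot be told apart.

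**Figure D5:**
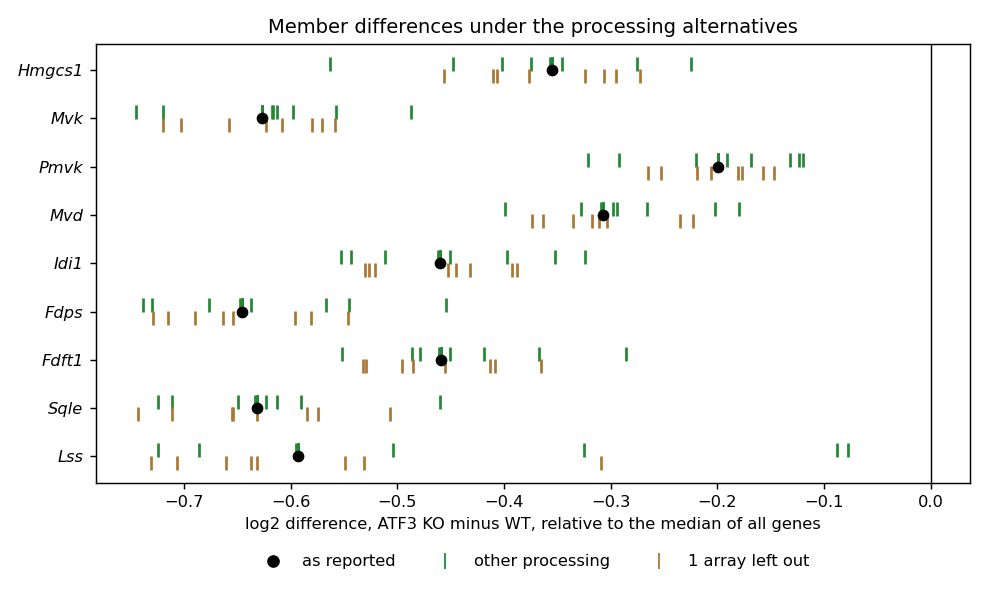
Log2 difference, ATF3 KO minus WT, of each enzyme gene relative to the median of all genes (horizontal axis), as reported (black), under other processing (green) and without 1 array (brown). All values lie below 0, with Lss moving most, to −0.09 with normexp and −0.08 among the 4 arrays of like brightness.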

How the data were processed

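Agilent Feature Extraction quantified the spots. The file headers give version 10.9.1.1, whereas 10.10 stands in the submitters' processing notes. The deposited processed signal is a linear intensity, background-subtracted and detrended within each array per the file headers, with no scaling between arrays recorded. The deposited table of the series holds log2 values of unstated origin. Its column medians ran from 6.13 to 6.15, and each column correlated with the log2 processed intensity of its own array at 0.955 to 0.969 across probes, so it runs in the same direction, and its centring stays unknown. It served as an alternative. Control spots and spots with outlier flags were left out and spots of a probe averaged. From each log2 processed intensity the 75th percentile of its array was subtracted, with 50.02% of probe values above background. Probes above background on at least 4 arrays were kept (27948), and the probe with the highest mean stood for a gene. Symbols came from RefSeq accessions, found for 27235 probes, through a table on GRCm38.p6. The array design names another build, so the table served for names, chromosomes and the upstream sequences, not for probe positions. No spot was saturated (0 on every array).

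Genotypes were compared with limma 3.58.1 in R 4.3.3 with Benjamini-Hochberg adjustment over all 21251 genes. The step was tested on simulated data, where it recovered 28% of genes changed 1.5-fold and 74% of those changed 2-fold. The 9 enzyme genes differed by 1.24-fold (Pmvk) to 1.69-fold (Fdps), so a missing call says little at these sizes. Normexp used the median spot and background signals with an offset of 50. The members and lists were chosen with earlier results of these data known. The genes named are the 9 members, list genes past the threshold or with the 3 smallest p-values in their list (of the marker lists the called gene alone is named), and the 8 nearest by each distance, of which 1 is not reported here.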

Additional observations from a re-analysis of the deposited data

Results flagged for a closer look

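Of 46 sets of 4 arrays examined (9 genes and 14 list scores in each genotype), 3 held an array that stood apart from the others by more than Dixon's critical value, and chance alone gives about 1 in 20. Idi1 was high on KO replicate 3, at a log2 signal of 2.256 with the next array at 1.914. Lss was low on KO replicate 4, at −3.655 with the next array at −2.511, and this was the array on which the probe was not above background. The score of the eosinophil and basophil genes was high on KO replicate 1, at 0.618 with the next array at 0.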

How the results depend on the processing

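The 9 enzyme genes kept a lower KO mean under each of 20 other settings, 8 of them leaving out 1 array, except that Lss was not tested with the filter on all 8 arrays. Their median relative to all genes ran from −0.55 to −0.37 over 19 of these settings and was −0.29 among the 4 arrays of like brightness, a setting chosen after seeing the data. The number called by limma, 0 as reported, was 3 with normexp, 2 with trend and robust variances, 1 with the deposited log2 table and 0 to 1 without single arrays (1 without KO replicate 3). The late sterol list had 1 call with trend and robust variances (Hsd17b7). The single fatty acid call (Me1) became 0 with normexp, quantile normalization, the percentile over detected probes, no filter, the filter on all 8 arrays, every probe tested, trend and robust variances, the replicate block and the arrays of like brightness, was 2 with the deposited table and 0 to 1 without single arrays. That list's median relative to all genes was −0.0205 with the filter on all 8 arrays, against −0.0945.

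Over all genes 95 were called, 17 lower and 78 higher. The count was 236 with normexp (84 lower, 152 higher), 31 with quantile normalization (9 and 22), 217 with median scaling (41 and 176), 44 with the percentile over detected probes (9 and 35), 10 with no filter (6 and 4), 56 with every probe tested (43 higher), 192 with trend and robust variances (56 and 136), 148 with array weights (36 lower), 150 with the deposited table (40 lower) and 3 among the arrays of like brightness (1 and 2). Without single arrays it ran from 9 (WT replicate 1) to 234 (KO replicate 3), with 6 to 45 lower and 3 to 189 higher. The causes were not tested. The median difference of all genes was 0.04 with the percentile over detected probes, against −0.11. Fnta reversed to 0.0614 with every probe tested, and Ceacam10 to 0.0175 with the deposited table and 0.0042 among the arrays of like brightness.

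The replicate numbers gave no sign of a pairing. Deviations from the group means of samples with the same number correlated at 0.19, −0.13, −0.27 and 0.18 across genes, and not every sample correlated best with its own number. With the replicate number as a block 72 genes were called (11 lower) and 0 of the 9 enzyme genes. Dim signal limits Lss.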
